A study of Mus musculus with 3 samples.

Results

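Chromatin accessibility was followed over the olfactory receptor genes of mouse chromosome 11, taken as every protein-coding gene of GENCODE vM21 (mm10) on that chromosome whose symbol starts with Olfr. The rule found 82 genes among 21755 protein-coding genes of the autosomes and X, against 1053 olfactory receptor genes on other chromosomes. The genes had been put forward because earlier values of these libraries, the levels in T-like nuclei, showed a largely closed family with a few members open in T-like nuclei, so the family was selected on the contrast of T-like with other nuclei, and every such comparison below is a description. The study profiled nuclei of snap-frozen wild-type mouse hearts with the 10x multiome assay, and only its accessibility arm was used here. In that assay the Tn5 transposase cuts accessible DNA in single nuclei, and each sequenced piece is 1 fragment carrying the barcode of its nucleus. The 3 groups were sunitinib plus Yoda1, sunitinib alone and vehicle, with 1 library each. Sunitinib is a multi-kinase inhibitor of the VEGF and PDGF receptors used against tumours, and Yoda1 is an agonist of the stretch-gated channel PIEZO1. All titles carry the word 3months, which the labels do not explain, and strain, sex, doses and the number of animals in a library were not given in the sources used here. With 1 library per group no difference between treatments has a replicate check, and all intervals are exact 95% intervals that cover counting error only.

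Olfactory receptors are G protein-coupled receptors that odorants bind on olfactory sensory neurons. Each such neuron expresses 1 receptor allele out of the whole family and holds the other receptor genes in compact heterochromatin. The genes stand in tandem clusters, their coding sequence usually lies in a single exon, and in most tissues outside the nose they are silent. The odorants bound by the members named here were not among the sources used.

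The library files held 583792 fragments for sunitinib plus Yoda1, 23653823 for sunitinib and 18704581 for vehicle. Nuclei were called at 1000 fragments, an enrichment at transcription start sites of 4 and a nucleosome ratio under 4, which left 12 nuclei of sunitinib plus Yoda1, 3855 of sunitinib and 2692 of vehicle. The median nucleus held 1326, 2370 and 2160 fragments in these libraries. The sunitinib plus Yoda1 library stood apart. In it 42.1% of fragments shared start and end with a fragment of another barcode, against 6.82% in sunitinib and 5.66% in vehicle, so it was compared as a whole library on the 258020 fragments that 100 or more read pairs supported. Called nuclei of sunitinib and vehicle shared 22 barcodes. Clustering gave 1 T-like cluster with 1392 nuclei in sunitinib (36.1% of its nuclei, 34.6 to 37.6) and 249 in vehicle (9.25%, 8.18 to 10.4). All 10 T markers were measured in it, and they summed to 1342 fragments per 1000000 in sunitinib T-like nuclei and 1148 in vehicle T-like nuclei, against 249 and 180 in the other nuclei. Whether these nuclei came from the heart wall, blood or another tissue cannot be told from the labels.

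A level is given throughout as fragments over the gene body plus 2 kb upstream, per kb of that window and per 1000000 fragments of the same nuclei. By this measure most of the family was closed in every class. Over both libraries, the median member had a level of 0.0804 in T-like nuclei and 0.123 in other nuclei. The median of all protein-coding genes was 0.742 in T-like and 0.738 in other nuclei, and that of 10 constitutive genes, such as Actb and Ppia, was 5.52 and 6.05. Olfactory receptor genes of other chromosomes had medians of 0.0797 and 0.0948, and the vomeronasal receptor families Vmn1r and Vmn2r had 0.0444 and 0.0568 in T-like nuclei and 0.0762 and 0.0719 in other nuclei. In T-like nuclei the typical chromosome 11 member was therefore about as closed as olfactory receptor genes that lie elsewhere. In other nuclei its median was somewhat above theirs.

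Without the 4 genes Olfr311 to Olfr314, none of the other 78 members reached a level of 1 in the T-like nuclei of either library. In sunitinib T-like nuclei the highest of the 78 was Olfr56 at 0.889 and the median was 0.0814. In vehicle T-like nuclei the highest was Olfr222 at 0.877, from 4 fragments, and 49 of the 78 had no fragment at all. Vehicle T-like nuclei held 571483 fragments in all, so low levels were not detectable in them. For Olfr320, one of those with no fragment, the interval reached up to a level of 0.905. In the other nuclei of sunitinib and vehicle, 77 of the 78 were under a level of 1, and the exception in both was Olfr1396.

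The members with fewest fragments per kb over both whole libraries were Olfr389, Olfr1385 and the pseudogene-named Olfr391-ps. Olfr389 had 11 fragments in sunitinib and 10 in vehicle, Olfr1385 had 18 and 15, and Olfr391-ps had 11 and 17. Over both libraries their levels were 0.0631, 0.0748 and 0.0920. These 3 genes show the floor of the family at this depth.

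The 82 genes lie in 7 position groups separated by at least 500 kb, with 19, 5, 2, 21, 2, 30 and 3 members along the chromosome. The group from Olfr20 to Olfr412, with 30 members, was closed throughout in T-like nuclei, its highest member at a level of 0.240. The group from Olfr30 to Olfr311, with 21 members, ran between 0 and 6.25 and held all 4 genes that stood out in T-like nuclei. The group from Olfr56 to Olfr1380, with 19 members, held the member most open in the other nuclei, at a level of 1.29. The 2 most open members of the other nuclei, Olfr1396 and Olfr1378 (0.773), lie in different position groups.

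**Figure D1:**
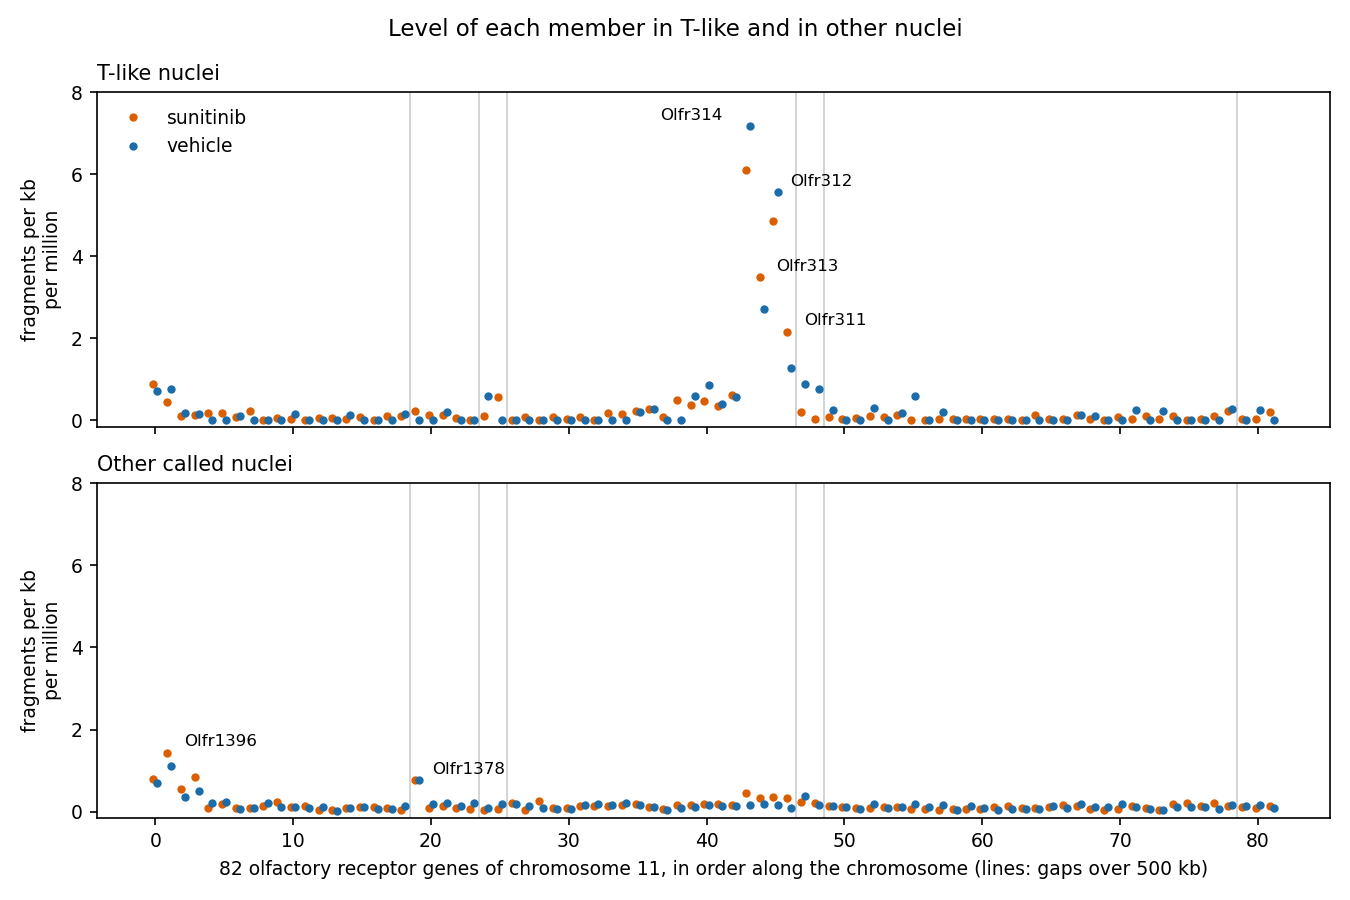
Level of each of the 82 members (fragments per kb of window per 1000000 fragments) in their order along chromosome 11, for T-like nuclei and other nuclei of sunitinib and vehicle. Olfr314 at 6.11 in sunitinib and 7.16 in vehicle T-like nuclei and its neighbours Olfr313, Olfr312 and Olfr311 rise above a family whose median in sunitinib T-like nuclei was 0.0814 without them.

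The 4 genes open in T-like nuclei lie side by side on the plus strand of mm10 chromosome 11. Olfr314 spans 58782952 to 58788768, Olfr313 58815000 to 58819450, Olfr312 58829237 to 58834780 and Olfr311 58839251 to 58844111. Olfr314 had 167 fragments in sunitinib T-like nuclei (level 6.11) and 32 in vehicle T-like nuclei (7.16), against 34 (0.463) and 10 (0.167) in the other nuclei of sunitinib and vehicle. Olfr312 had 128 (4.85) and 24 (5.57) in T-like nuclei, against 25 (0.353) and 10 (0.173) in other nuclei. In both libraries these 2 genes ranked first and second of the family in T-like nuclei.

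Olfr313 had 79 fragments (3.50) in sunitinib and 10 (2.71) in vehicle T-like nuclei, against 20 (0.330) and 9 (0.182) in other nuclei. Olfr311 had 52 (2.17) and 5 (1.28) in T-like nuclei, against 21 (0.326) and 5 (0.0953) in other nuclei. The order of the 4 was the same in both libraries, although the vehicle counts of Olfr313 and Olfr311 are small. Among all protein-coding genes in T-like nuclei of both libraries, Olfr314 stood at percentile 96.9, Olfr312 at 94.6, Olfr313 at 89.4 and Olfr311 at 78.1. In the other nuclei the same genes stood at percentiles 31.1, 27.6, 27.1 and 24.4.

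As log2 ratios of T-like to other nuclei, Olfr314 was at 3.70 (3.18 to 4.30) in sunitinib and 5.37 (4.36 to 6.61) in vehicle, with 0.5 fragments added to each side. Olfr312 was at 3.76 (3.15 to 4.46) and 4.96 (3.89 to 6.23), Olfr313 at 3.38 (2.68 to 4.19) and 3.89 (2.44 to 5.37), and Olfr311 at 2.71 (1.98 to 3.54) and 3.74 (1.62 to 5.86). All 8 ratios thus lay above a 2-fold difference, lower ends of the intervals included. Olfr314 also came first by ratio among the 10 genes that led the T-like cluster, ahead of Cd8b1, which encodes a chain of the T cell co-receptor CD8, and with Rag1 and Dntt, which act in the assembly of antigen receptor genes. It did so too when the clusters were made without chromosome 11, but the nuclei are the same ones and this adds no independent support.

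The same fragments were also counted per nucleus, at low depth, which adds no independent support. Nuclei of a library are not replicates. A fragment over any of the 4 genes was seen in 348 of 1392 sunitinib T-like nuclei (25%, 22.7 to 27.4) and 56 of 249 vehicle T-like nuclei (22.5%, 17.5 to 28.2), with median depths of 2068.5 and 1623 fragments. In cardiomyocyte-like nuclei, with median depths of 1769 and 1826, the shares were 1.03% in sunitinib and 0.722% in vehicle. After thinning every nucleus to 1000 fragments, the shares were 12.1% and 12.7% in T-like nuclei and 0.318% and 0.140% in cardiomyocyte-like nuclei. No nucleus fell under that number, and none had more than 6 fragments over the 4 genes together.

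The other lymphoid class did not share this level. B-like nuclei had the 4 genes together at 0.490 in sunitinib (5 fragments) and 0.504 in vehicle (3 fragments), against 4.25 and 4.33 in T-like nuclei. The 10 T markers summed to 834 and 443 fragments per 1000000 in the same B-like nuclei. Myeloid-like nuclei had the 4 genes at 0.243 and 0.136, mural-like nuclei at 0.263 and 0.137, and cardiomyocyte-like nuclei at 0.141 and 0.0930. In sunitinib and vehicle every class outside the T-like one stayed under a level of 1, the highest being the unnamed cluster with low enrichment at start sites at 0.834 and 0.643.

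Within the fibroblast-like class the 4 genes followed 1 cluster. The smaller of its 2 clusters, with 63 sunitinib and 21 vehicle nuclei, had levels of 2.09 (1.29 to 3.19) and 3.73 (1.61 to 7.34) and carried T markers at 648 and 614 fragments per 1000000. The larger had 0.106 and 0.103 with T markers at 194 and 137 fragments per 1000000. No doublet caller was run, and the part of nuclei that share a barcode in these values was not tested. Leaving the smaller cluster out, a choice made after its values were seen, put the 4 genes in the remaining other nuclei at 0.305 in sunitinib and 0.120 in vehicle, and the T-like over other log2 ratios at 3.79 and 5.16.

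**Figure D2:**
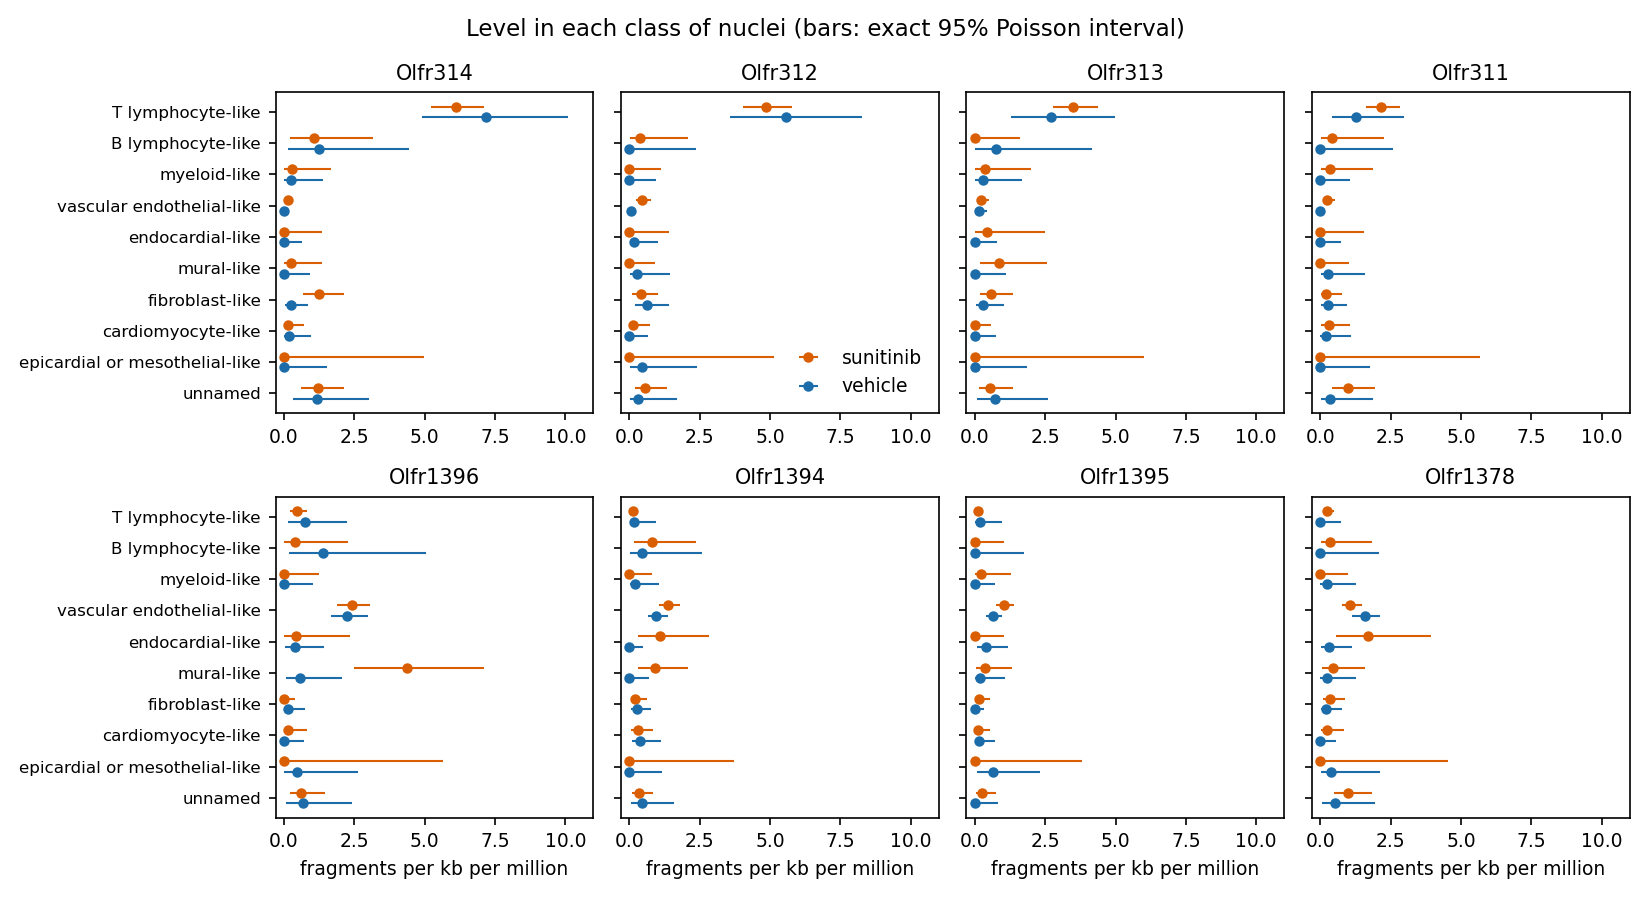
Level of 8 open members, a panel each, in each class of nuclei (vertical axis) of sunitinib and vehicle, in fragments per kb of window per 1000000 fragments (horizontal axis). Points are the levels and bars the exact 95% counting intervals. The 4 neighbours Olfr311 to Olfr314 stand out in T-like nuclei, with Olfr314 at 6.11 and 7.16, while Olfr1396 is at 2.42 and 2.25 in vascular endothelial-like nuclei.

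Around the run of 4, neighbouring genes differed in how much more open they were in T-like than in other nuclei. Fam183b, which lies between Olfr314 and Olfr313 and is no receptor gene, had T-like over other log2 ratios of 2.14 in sunitinib and 2.77 in vehicle. Past Olfr311, Gm12258 had 1.05 and 1.56, 2810021J22Rik 2.05 and 2.31, and Btnl10, a butyrophilin-like gene, 1.87 and 2.79. Zfp39, a zinc finger gene standing among them, was at 0.48 (0.15 to 0.79) and 0.38 (−0.50 to 1.08). It was open on both sides, with levels of 1.98 and 1.55 in T-like and 1.42 and 1.22 in other nuclei. The difference therefore did not stop at the receptor genes, and its size varied along the stretch.

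On the other side of Olfr314, members were weaker. Olfr315, its direct neighbour at 58773188 to 58780251, had 20 fragments (0.631) in sunitinib and 3 (0.579) in vehicle T-like nuclei, against 14 (0.164) and 9 (0.130) in other nuclei. Olfr317 had 17 (0.477) and 5 (0.858) in T-like nuclei, Olfr318 had 12 (0.389) and 3 (0.595), and Olfr316 had 11 (0.352) and 2 (0.392). Olfr319 had 11 (0.498) in sunitinib and 0 in vehicle T-like nuclei, and Olfr320 beyond it had 2 and 0. Pooled log2 ratios were 2.07 (1.17 to 2.96) for Olfr315, 1.83 for Olfr319, 1.58 for Olfr317, 1.53 for Olfr318 and 1.15 for Olfr316. Outside this position group, Olfr1371 reached the 12 highest members in T-like nuclei with 6 fragments (0.584) in sunitinib and 0 in vehicle, against 2 and 4 in other nuclei.

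Counted by a fixed rule, members were called at a 2-fold difference where they had at least 10 fragments over both sides and 3 expected on each. In sunitinib 45 of 82 members passed that filter and 10 were higher in T-like than in other nuclei, where 6.88% of all protein-coding genes were. These were Olfr311 to Olfr315, Olfr317, Olfr318, Olfr319, Olfr322 and Olfr1391, and 9 of them belong to the position group of 21. Another 15 members were lower, against 14.3% of all genes, 5 of them with 0 fragments in T-like nuclei, and they included Olfr1396, Olfr1395, Olfr1394 and Olfr1378. In vehicle, with fewer T-like nuclei, 3 members passed the filter, 0 were called higher (8.24% of all genes) and 1, Olfr1378, was lower (13.4%). The 4 open genes missed the vehicle filter on the expected number, which does not depend on where their fragments lay. On both libraries pooled, 61 passed, 11 were higher (7.03% of all genes) and 19 were lower (14.7%). The contrast was used to choose the family, so nothing is read from these shares.

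Fragment ends placed the signal within the genes. In 200-base bins of T-like nuclei, the highest bin after the stop codon was centred 624 bases past it in Olfr314, 764 in Olfr313, 655 in Olfr312 and 709 in Olfr311. These bins held 86, 36, 38 and 24 ends in T-like nuclei of both libraries, against 15, 5, 9 and 5 in all other nuclei. All T-like nuclei together held 4070842 fragments and all other nuclei 17035900. In Olfr314 that came to 21.1 ends per 1000000 in T-like and 0.880 in other nuclei, at chr11:58787752-58787951. A second bin of Olfr314 held 48 ends at 1424 bases past the stop codon.

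Both libraries contributed to the position after the stop codon. Sunitinib and vehicle gave 68 and 18 ends for Olfr314, 29 and 7 for Olfr313, and 21 and 3 for Olfr311 in the same bin. For Olfr312 the sunitinib bin at 655 held 34 ends, while the highest vehicle bin there, with 6, lay at 455. From 300 to 1100 bases past the stop codon, T-like nuclei had 187 ends in Olfr314, 74 in Olfr313, 105 in Olfr312 and 49 in Olfr311. The other 78 members had a median of 0 ends in the same stretch, and the highest of them, Olfr1373, had 17. The stretch spans the highest bins of the open genes, and the 78 had low levels over their whole windows. This contrast therefore shows no position particular to the open genes.

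Near the annotated gene start the 4 differed more. Olfr312 had 42 ends there in a bin centred 700 bases into the gene, against 8 in other nuclei. By library this bin held 32 ends in sunitinib and 10 in vehicle, beside the 34 and 6 in the highest bins after its stop codon. Olfr313 had 22 ends at 700 bases, Olfr314 had 20 ends at −300 bases from its start, and Olfr311 had 9 at 900 bases. In vehicle each of these near-start values except that of Olfr312, with 10 ends, rested on 2 ends or fewer.

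After the stop codon 3 of the 4 genes are close copies, over more than the position with most ends. The stretch below is 30 bases of the annotated transcript after the stop codon, in capitals throughout because all 30 bases are identical in the 3 genes, read from the GENCODE transcripts on the plus strand of mm10. It starts 623 bases past the stop codon in Olfr313 (chr11:58818559-58818588), 640 in Olfr312 (chr11:58832722-58832751) and 627 in Olfr311 (chr11:58842669-58842698). The stretch was picked as the aligned 30 bases without gaps nearest the highest bin after the stop codon of Olfr312. Its place within or beside the bins with most ends was therefore set by that choice.
Olfr313: GTGGCAAGTCCCCTTGTGGAACAGACTTGC
Olfr312: GTGGCAAGTCCCCTTGTGGAACAGACTTGC
Olfr311: GTGGCAAGTCCCCTTGTGGAACAGACTTGC
Of 77 members with any annotated sequence after the stop codon, these 3 held the stretch. No minimum length was set, so some of the others may not reach as far as its position. The other 74 had at least 11 mismatches to it, and Olfr314, the most open of the 4, had 15.

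Over the 800 bases from 300 to 1100 past the stop codon, Olfr313 and Olfr311 were 91.4% identical, Olfr312 and Olfr311 87.0%, and Olfr313 and Olfr312 86.4%. Olfr314 had 41.8 to 42.0% identity to each of them. Reads from such close copies can be placed on the wrong gene or dropped, so how fragments divide among Olfr311, Olfr312 and Olfr313 is uncertain. Olfr314 is no close copy of them in that stretch, and its likeness to other sequences was not examined.

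Letters of 3 motifs were searched on both strands, each region counting once per motif. No motif is contained in another on either strand. The RUNX motif TGTGGT occurred after the stop codon of Olfr311, Olfr312 and Olfr313, and in 38.5% of the 52 members that have all 800 bases there. The TCF motif CTTTGA occurred in Olfr314 and Olfr312 and in 50.0% of those members, and the homeodomain motif TAATTA in Olfr311 and Olfr313 and in 23.1%. None of the 3 was in all 4 open genes, and each was common among closed members of the family.

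RefSeq promoters, 250 bases before to 50 after a gene's start on GRCm38.p6, matched 69 of the 82 members with 70 promoters. They lay far from the GENCODE starts, with a median distance of 3388.5 bases and 11 within 100 bases. They held few fragments, a median of 1 and at most 10 over all called nuclei of both libraries. Shown are the promoter with most fragments, Olfr1396 (chr11:49113708-49114007, minus strand, 10 fragments, 6 of them in vascular endothelial-like and 0 in T-like nuclei), and those of 2 open genes, Olfr314 (chr11:58785889-58786188, plus strand, 7 fragments, 6 in T-like nuclei) and Olfr312 (chr11:58830906-58831205, plus strand, 6 fragments, 5 in T-like nuclei). Capitals mark the only match to the 3 motifs in each.
Olfr1396: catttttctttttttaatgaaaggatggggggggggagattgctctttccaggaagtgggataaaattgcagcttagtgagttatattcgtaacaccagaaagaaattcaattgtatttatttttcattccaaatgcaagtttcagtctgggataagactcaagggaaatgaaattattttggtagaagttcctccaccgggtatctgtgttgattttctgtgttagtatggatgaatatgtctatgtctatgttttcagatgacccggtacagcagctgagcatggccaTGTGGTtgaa
Olfr314: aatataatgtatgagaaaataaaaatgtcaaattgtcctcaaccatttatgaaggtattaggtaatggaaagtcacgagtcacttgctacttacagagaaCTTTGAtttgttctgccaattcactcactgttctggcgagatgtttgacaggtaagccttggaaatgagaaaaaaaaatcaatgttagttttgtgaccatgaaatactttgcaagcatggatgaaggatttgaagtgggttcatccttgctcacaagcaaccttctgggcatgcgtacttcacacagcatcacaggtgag
Olfr312: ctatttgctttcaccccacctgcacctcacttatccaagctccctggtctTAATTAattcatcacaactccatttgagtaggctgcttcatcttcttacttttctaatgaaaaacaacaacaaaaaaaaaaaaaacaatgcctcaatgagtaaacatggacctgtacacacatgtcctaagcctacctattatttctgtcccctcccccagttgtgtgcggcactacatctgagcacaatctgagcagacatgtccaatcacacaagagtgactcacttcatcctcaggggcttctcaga
TGTGGT was in 22.9% of the members' promoters and 16.8% of all 32851 RefSeq promoters, CTTTGA in 28.6% and 16.0%, and TAATTA in 18.6% and 5.29%. A match describes letters and is no site of binding.

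Fragment length gave a further view of the open run. Of the fragments over the 4 genes, 42.7% (38.0 to 47.6) were shorter than the DNA wrapped on a nucleosome in sunitinib T-like nuclei and 45.1% (33.2 to 57.3) in vehicle T-like nuclei. The other members without Olfr56 had 34.2% and 26.7%, and receptor genes of other chromosomes 27.5% and 26.7%. All fragments of the same nuclei had 39.1% and 39.3%. The open run was thus close to the genome at large, and receptor genes elsewhere were below it.

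A different part of the family was most open in endothelial-like nuclei. Olfr1396, on the minus strand at 49109982 to 49114874, had 69 fragments (level 2.42) in sunitinib and 48 (2.25) in vehicle vascular endothelial-like nuclei. In all remaining nuclei it had 35 (0.580) in sunitinib and 13 (0.368) in vehicle. Among these, Olfr1396 stood at a higher level in sunitinib mural-like than in sunitinib vascular endothelial-like nuclei, on few fragments. Its log2 ratio of endothelial-like to remaining nuclei was 2.05 (1.46 to 2.69) in sunitinib and 2.57 (1.71 to 3.62) in vehicle. In all nuclei outside the T-like class its level stood at percentile 68.2 of all protein-coding genes, the highest of the family there.

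Its neighbours Olfr1395 and Olfr1394, on the plus strand at 49142274 to 49150453 and 49154377 to 49162854, showed the same preference at lower levels. Olfr1395 had 44 (1.05) and 20 (0.635) fragments in endothelial-like nuclei of sunitinib and vehicle, against 13 (0.146) and 8 (0.153) in remaining nuclei. Olfr1394 had 60 (1.39) and 31 (0.957), against 27 (0.294) and 11 (0.205). Olfr1378, in the next position group at 50966530 to 50973113, had 38 (1.07) and 42 (1.58), against 31 (0.412) and 9 (0.205). The log2 ratios to remaining nuclei were 2.81 and 2.0 for Olfr1395, 2.22 and 2.18 for Olfr1394, and 1.37 and 2.89 for Olfr1378.

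By the highest bin of the whole window, these 4 members had no common position. By the same measure in T-like nuclei, Olfr314, Olfr313 and Olfr311 had theirs after the stop codon. Olfr312 had its highest bin 700 bases into the gene, with 42 ends against 38 after the stop codon. With both libraries pooled, the highest bin of ends in endothelial-like nuclei was 500 bases inside Olfr1396 with 52 ends, 2700 bases inside Olfr1395 with 48, at −100 bases from the start of Olfr1394 with 21, and at −1300 bases from the start of Olfr1378 with 60. The remaining nuclei had 13, 5, 6 and 8 ends in those bins. After the stop codon, no bin of these members held more than 9 ends in endothelial-like nuclei.

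Olfr56 stood apart for its annotation. Its GENCODE gene body runs from 48978889 to 49135387, a window of 158.499 kb that contains Olfr1396 and overlaps Gm12185, 9930111J21Rik1, 9930111J21Rik2, Tgtp1, Tgtp2 and Ifi47. Tgtp1, Tgtp2 and Ifi47 encode interferon-induced GTPases. Olfr56 had 493 fragments (0.889) in sunitinib and 65 (0.718) in vehicle T-like nuclei, against 1194 (0.802) and 848 (0.700) in other nuclei. Ifi47 inside it had levels of 3.68 and 3.28 in T-like nuclei, against 2.28 and 2.09 in other nuclei. On the 64.03 kb that no gene outside the Olfr symbols covers, Olfr56 had 0.589 and 0.437 in T-like nuclei, against 0.780 and 0.590 in other nuclei. Olfr1396, the member most open in other nuclei, was not subtracted from these bases. What is counted for Olfr56 cannot be told apart from the genes it spans. Olfr30, called lower in T-like nuclei, overlaps Lypd9, and Olfr20 overlaps Gm49340.

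Summed over all members, the family had 1180 fragments (level 0.395) in sunitinib T-like nuclei, against 2210 (0.276) in sunitinib other nuclei. In vehicle it had 178 (0.365) in T-like and 1595 (0.244) in other nuclei. The log2 ratios were 0.52 (0.42 to 0.62) and 0.58 (0.35 to 0.80). Without Olfr311 to Olfr314 they were −0.06 and −0.12, and without Olfr56 alone 0.76 and 0.95. Without both they were −0.47 (−0.67 to −0.27) and −0.34 (−0.82 to 0.08), against −0.16 and 0.09 for receptor genes of other chromosomes. The remaining 77 members were thus, in sum, less open in T-like nuclei of sunitinib, and in vehicle the interval includes 0.

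Per kb, the family was more open than the receptor genes of other chromosomes, with log2 ratios of 1.94 in sunitinib and 1.64 in vehicle T-like nuclei and 1.83 and 1.63 in vascular endothelial-like nuclei. Without Olfr56 and the run of 4, the ratios were 0.17 and 0.01 in T-like nuclei and 0.81 and 0.80 in vascular endothelial-like nuclei. The excess in T-like nuclei came down to those 5 genes, whereas part of the excess in endothelial-like nuclei lay in other members. That part was not particular to vascular endothelial-like nuclei. In sunitinib and vehicle it was 0.77 and 0.38 in endocardial-like, 0.74 and 0.30 in B-like and 0.26 and 0.51 in unnamed nuclei. The vehicle intervals of endocardial-like (−0.0007 to 0.73) and B-like nuclei (−0.70 to 1.07) include 0. Mural-like nuclei had 0.46 and −0.10, cardiomyocyte-like 0.18 and 0.24, and epicardial or mesothelial-like −0.18 and 0.28, all with intervals that include 0. Fibroblast-like nuclei had 0.01 and −0.28, and myeloid-like nuclei −0.32 and −0.12. All nuclei outside the T-like class together had 0.47 and 0.44.

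Between treatments, the family was slightly more open in sunitinib than in vehicle. Over all called nuclei its level was 0.308 in sunitinib, from 3390 fragments, and 0.253 in vehicle, from 1773, a log2 ratio of 0.29 (0.20 to 0.37). Without Olfr56 and Olfr311 to Olfr314 the ratio was 0.00 (−0.13 to 0.13), as it was 0.01 for receptor genes of other chromosomes. T-like nuclei made up 36.1% of nuclei in sunitinib and 9.25% in vehicle, and in counts summed over all nuclei more T-like nuclei and more open genes per nucleus cannot be told apart. Within T-like nuclei the family's log2 ratio was 0.11 (−0.11 to 0.35), and in other nuclei 0.17 (0.08 to 0.27). Without Olfr56 and Olfr311 to Olfr314 it was −0.03 (−0.48 to 0.47) in T-like nuclei and 0.09 (−0.04 to 0.23) in other nuclei. Receptor genes of other chromosomes were at 0.06 (0.01 to 0.10) in other nuclei.

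Of the 50 members with at least 20 fragments and 5 expected in each library, 6 were at least 2-fold higher in sunitinib over all called nuclei, where 0.872% of protein-coding genes were. Olfr314 had 201 fragments in sunitinib and 42 in vehicle, a log2 ratio of 1.60 (1.12 to 2.13). Olfr312 had 153 and 34 (1.5), Olfr313 had 99 and 19 (1.70), and Olfr311 had 73 and 10 (2.16). The other two were Olfr319, with 20 and 4 (1.54), and Olfr411, with 22 and 5 (1.38, 0.05 to 3.25). The 4 genes of the T-like run were thus among the 6 that were higher in sunitinib, the library with the larger share of T-like nuclei.

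Another 3 members were at least 2-fold lower in sunitinib, against 0.622% of all genes, each on few fragments. Olfr401 had 10 in sunitinib and 17 in vehicle (−1.39, −2.70 to −0.21), Olfr1380 had 9 and 13 (−1.16, −2.59 to 0.16), and Olfr139 had 10 and 14 (−1.11, −2.47 to 0.14). The intervals of Olfr1380 and Olfr139 include 0. Receptor genes of other chromosomes, which are as thinly covered, had 24 higher and 16 lower of 365, so their shares too were above those of all genes. The median log2 ratio was 0.22 over the 50 members and 0.01 over all genes.

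Inside T-like nuclei the difference between treatments was not seen at this depth. There 5 members passed the filter and 0 were called, against 1.53% of all genes higher and 0.687% lower. Olfr314 was at −0.25 (−0.78 to 0.36), Olfr312 at −0.22 (−0.84 to 0.49), Olfr313 at 0.31, Olfr311 at 0.64 and Olfr56 at 0.30. For the 4 open genes together the log2 ratio in T-like nuclei was −0.04 (−0.39 to 0.35), with levels of 4.25 in sunitinib and 4.33 in vehicle.

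In the nuclei outside the T-like class, 38 members passed, 4 were higher in sunitinib (0.409% of all genes) and 1 was lower (0.463%). The higher ones were Olfr1389 (27 fragments in sunitinib and 10 in vehicle), Olfr311 (21 and 5), Olfr314 (34 and 10) and Olfr411 (18 and 5), and the lower one was Olfr401 (7 and 17). Together the 4 genes of the T-like run had levels of 0.371 in sunitinib and 0.155 in vehicle there, a log2 ratio of 1.25 (0.69 to 1.87), and of 1.33 (0.69 to 2.05) without the smaller fibroblast-like cluster. The 10 T markers moved the same way in these nuclei, with a log2 ratio of 0.47 (0.37 to 0.56) and 10 of 10 higher in sunitinib by 0.26 to 0.98. Their part in the result was not tested.

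**Figure D3:**
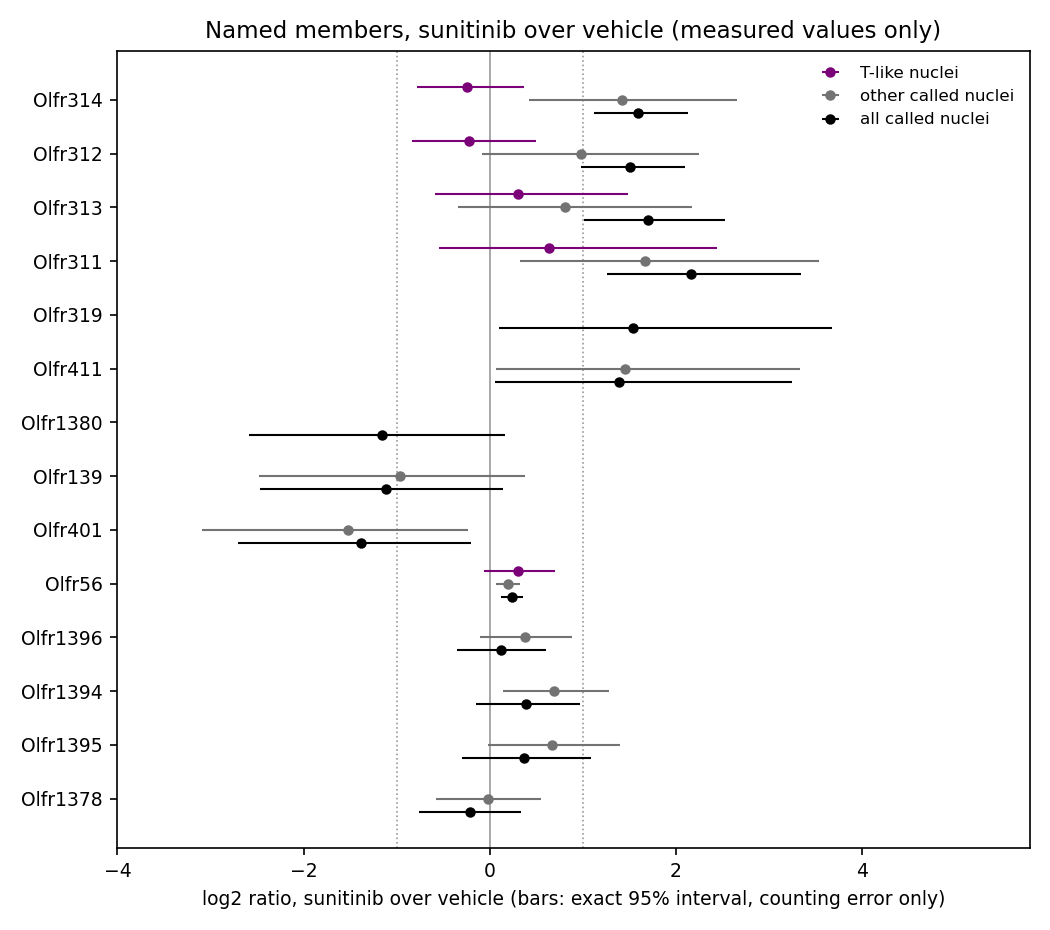
Log2 ratios of sunitinib to vehicle, with 95% counting intervals, for named members in all called nuclei, T-like nuclei and other nuclei. The 4 genes Olfr311 to Olfr314 lie between 1.5 and 2.16 over all called nuclei, and in T-like nuclei the values for Olfr314 and Olfr312 are −0.25 and −0.22.

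Among endothelial-like members the ratios went in both directions. The log2 ratio of sunitinib to vehicle in vascular endothelial-like nuclei was 0.10 (−0.45 to 0.67) for Olfr1396, 0.70 (−0.07 to 1.56) for Olfr1395, 0.52 (−0.11 to 1.21) for Olfr1394 and −0.56 (−1.23 to 0.11) for Olfr1378. Each of these 4 intervals includes 0 and leaves room for a difference of the size of its bounds. In all nuclei outside the T-like class, Olfr1394 was at 0.70 (0.15 to 1.28), an interval that does not include 0. In mural-like nuclei Olfr1396 had 16 fragments in sunitinib and 2 in vehicle, a log2 ratio of 2.66 (0.85 to 6.11). Mural-like nuclei held 531387 fragments in all in sunitinib and 510513 in vehicle, against 4130546 and 3091619 in vascular endothelial-like nuclei. The level of Olfr1396 was thus higher in mural-like than in endothelial-like nuclei of sunitinib, and lower in vehicle.

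In the sunitinib plus Yoda1 library the family had 45 fragments (level 0.204), against 0.300 in the whole sunitinib library and 0.268 in the whole vehicle library. The log2 ratios were −0.54 (−1.01 to −0.13) over sunitinib and −0.38 (−0.85 to 0.03) over vehicle. In that library 27 of the 82 members had a fragment and 55 had none. Olfr56 had the most with 15, and the 4 genes of the T-like run had 2 together. Without those 4 and Olfr56 the ratios were −0.15 and −0.33, with intervals of −0.76 to 0.35 and −0.93 to 0.17. Receptor genes of other chromosomes were at 0.20 and 0.10. No T-like nucleus was called in this library, and its quality moves with the treatment.

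Genes that act with olfactory receptors were read from lists. Of 11 genes of receptor gene choice, all measured, 0 were at least 2-fold higher in sunitinib T-like than other nuclei and 3 were lower, where 6.88% of all genes tested were higher and 14.3% lower. In vehicle 0 were higher and 4 lower, beside 8.24% and 13.4% of all genes. With the libraries pooled, the most open were Atf5, a factor of the feedback that fixes the choice of receptor (level 7.71 in T-like and 6.19 in other nuclei), Ldb1, the partner of Lhx2 at receptor enhancers (4.96 and 3.56), Lbr of the nuclear envelope (1.94 and 1.43) and the stress kinase gene Eif2ak3 (1.94 and 1.06). The 3 lower ones in sunitinib, named after their values were seen, were the factors Ebf1 (−1.40), Ebf2 (−1.92) and Ebf3 (−1.04). Vehicle added Emx2 (−1.18, −7.08 to 0.80) to them, with an interval that includes 0. The median log2 ratio of the list was 0.05 in sunitinib and −0.04 in vehicle, beside 0.07 and 0.10 over all genes tested.

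Of 12 olfactory signalling genes, 0 were higher in sunitinib T-like nuclei and 3, Omp, Rtp2 and Ano2, were lower, with a median of −0.14. The interval of Omp (−1.29, −3.40 to 0.08) includes 0. In vehicle, where 6 of the 12 were measured, 1 was higher, Gnal at 1.25 (0.86 to 1.60), and 1 was lower, Ano2 at −2.21, with a median of 0.16. The shares over all genes are those given for the list before. With the libraries pooled, the most open were Cngb1, a subunit of the olfactory cyclic nucleotide-gated channel (0.978 in T-like and 0.868 in other nuclei), Ric8b (0.780 and 0.954), the G protein gene Gnal (0.771 and 0.398) and the adenylyl cyclase gene Adcy3 (0.715 and 0.606). Of 9 heterochromatin writers and readers, 0 were called in sunitinib, with a median of 0.41. In vehicle 2 were higher, Suv39h1 (1.04, 0.18 to 1.75) and Suv39h2 (1.13, 0.60 to 1.60), and 0 lower, with a median of 0.55. Their pooled levels were led by Cbx3 (6.24 in T-like and 4.72 in other nuclei), Trim28 (3.54 and 2.44), Ehmt2 (2.64 and 1.95) and Suv39h2 (2.54 and 1.52). Of the 10 constitutive genes 0 were called in either library, with medians of 0.03 in sunitinib and 0.12 in vehicle. Between sunitinib and vehicle over all called nuclei, none of the genes of the 4 lists, all measured, was called.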

How the data were processed

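The deposited files are fragment lists of the accessibility arm, with read pair counts per fragment, written by cellranger-arc 2.0.0 (vehicle and sunitinib) and 2.0.2 (sunitinib plus Yoda1) on mm10, per the file headers. The submitters' processing notes also name Signac. Fragments were counted over gene windows here with Python 3.11.15, numpy 2.4.6, scipy 1.17.1, pandas 2.3.3 and MAFFT 7.526. A fragment over several windows counts for each gene and once in a family sum. Nuclei of all libraries were clustered on 60000 tiles of 5 kb (30 components, 20 neighbours, Leiden resolution 0.8, leidenalg 0.10.2) and named "-like" from 12 lists of markers. A name required at least 3 markers 2-fold or more over the other nuclei and a median marker ratio of at least 2-fold. Clusters whose leading genes went against their name, or shallow ones without an own marker among them, stayed unnamed. Counting was tested on simulated data.

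The members, lists and comparisons were chosen with earlier results of these data known. Named with values were the 12 members highest in T-like nuclei pooled, the 6 highest in other nuclei, every member called between sunitinib and vehicle, the 3 with fewest fragments per kb, and up to 4 genes per list by level. Others named are exceptions to that rule, chosen after their values were seen. No test was run, as each group had 1 library. Ratios carry conditional exact intervals, levels Poisson and shares Clopper-Pearson intervals. Without molecular identifiers these cover counting error only. Accessibility was not compared with the expression arm, which was not analysed here.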

Additional observations from a re-analysis of the deposited data

Results flagged for a closer look

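Barcodes under the nucleus call, which the report counts only as part of whole libraries, carried signal over Olfr311 to Olfr314 in the sunitinib library. Their level there was 0.990, from 292 fragments, above the 0.426, from 125 fragments, in the same kind of barcodes of vehicle. The log2 ratio of sunitinib to vehicle was 1.21 (0.91 to 1.53), with 1 library per treatment and counting error only. It lay beside 1.67 (1.37 to 1.99) over all called nuclei, where T-like nuclei made up 36.1% in sunitinib and 9.25% in vehicle.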

How the results depend on the processing

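Of 184 alternative values for the family sums and member counts, 134 stayed within the counting interval, or within 1.5 times the count, 44 left it and 6 turned from above 0, with an interval that excluded 0, to below 0. These 6 are the negative T-like over other and whole-library values given next for the family. Of 44 alternative values for the single genes Olfr311 to Olfr314, 42 stayed within their intervals. The exceptions were Olfr311 with short, sub-nucleosomal fragments (2.29) and Olfr312 in nuclei with at least 3000 fragments (3.58). Where no cause follows from how an alternative was made, the cause was not tested.

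For T-like over other nuclei, the family's log2 ratio in sunitinib was 0.31 when scaled to fragments near start sites, 0.76 without Olfr56, −0.060 without Olfr311 to Olfr314 and −0.47 without both. In vehicle it was 0.84 with windows of 1 kb around start sites, 0.95, −0.12 and −0.34. The alternatives that leave out members, and the one that leaves out the smaller fibroblast-like cluster, were chosen after seeing the data. The count of higher members, 10 in sunitinib and 11 pooled, was 6 and 6 with at least 3000 fragments per nucleus and 5 and 5 with short fragments, where fewer members passed the filter.

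Over receptor genes of other chromosomes, the sunitinib T-like ratio was 1.81 with at least 3000 fragments, 2.07 over gene bodies, 1.61 on bases of no gene outside the Olfr symbols, 1.58 around start sites, 2.32 with short fragments, 1.46 without Olfr56, 1.34 without the run of 4 and 0.17 without both. The vehicle T-like ratio was 1.35 on bases of no gene outside the Olfr symbols, 2.09 with short fragments, and 1.30, 0.95 and 0.0051 without these members. The sunitinib endothelial-like ratio was 1.98 over gene bodies, 1.35 on bases of no gene outside the Olfr symbols, 1.13 around start sites, 2.21 with short fragments, 0.84 without Olfr56 and 0.81 without both. The vehicle endothelial-like ratio was 1.08 on bases of no gene outside the Olfr symbols, 1.11 around start sites, 2.11 with short fragments, 0.75 without Olfr56 and 0.80 without both.

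For sunitinib over vehicle, the family's log2 ratio in T-like nuclei was −0.14 around start sites. Over all called nuclei it was 0.13 without the run of 4 and 0.0010 without that run and Olfr56. For whole libraries, at 0.16 as first computed, it was 0.064 around start sites, 0.10 with short fragments, −0.078 when scaled to start sites, 0.056 without Olfr56, 0.033 without the run of 4 and −0.17 without both. The members called apart, 9 over all called nuclei and 5 over other nuclei, were 5 and 1 around start sites and 4 and 1 with short fragments. In T-like nuclei the count was 1, Olfr311, without the 5% of nuclei with most fragments, against 0. No paired analysis was possible because each group held 1 library. Depth limits vehicle T-like nuclei, with 571483 fragments, and the sunitinib plus Yoda1 library, with 258020.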
